A study of Oryctolagus cuniculus with 12 samples.

Results

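Solute carriers are the large class of membrane proteins that move sugars, amino acids, ions, vitamins, nucleosides and drugs across the membranes of a cell. The 35 genes described here are all genes of the array annotation whose current symbol starts with SLC and a digit, apart from SLC2A1, SLC2A4, SLC6A8, SLC25A4 and SLC10A1. They were chosen by name, with earlier results of these data known, and they are 35 of the 40 solute carriers among 591 named genes. The array annotation lists 19 of them under another symbol, such as KCC4 for SLC12A7 or AE3 for SLC4A3. For SLC25A24 and SLC5A10 that symbol, SLC25A23 and SLC5A9, is also that of another solute carrier, and the current names follow the RefSeq accession of the probe. They have 90 probes in all, 18 genes with 1 probe and 17 with 2 or more, and a gene's values come from its brightest probe on average across the 12 arrays.

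The tissue was fetal rabbit ventricle, from control fetuses and from fetuses with intrauterine growth restriction (IUGR), a state of low fetal size for age. Each of 6 IUGR and 6 control samples had 1 single-colour array, and the labels join them into 6 pairs of 1 IUGR and 1 control sample. Titles call the IUGR samples treatment, and the way growth was restricted, the gestational age, the strain, the sex and the origin that joins a pair were not stated in the sources at hand. The labels do not say that the replicates came from separate litters, so p-values cover only the spread among these pairs, which may be technical. All ventricles were snap frozen before total RNA was extracted.

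Values are log2 probe signals, and differences are IUGR minus control, each given as mean ± SD (n = 6 pairs). The signal of a probe depends on its sequence, so signals of different genes are not amounts that can be set against each other. A probe's rank is used here only to say how bright it was: the median probe of the array had a mean of 4.61, and dim means below that. Of the heart muscle markers, MYH6, CKM and RYR2 were measured, at percentiles 99.2, 99.8 and 97.4 of the probe means. The atrial peptide NPPA ran from 9.49 to 15.79 over the 12 hearts. The lung surfactant gene SFTPB had a mean of 11.23, while the other measured lung marker, SCGB1A1, was dim at 3.07. Of the liver genes, AHSG and TF had means of 8.33 and 9.20. APOB, VTN, ITIH3 and SERPINF2 were dim, with means of 2.83, 2.75, 3.36 and 3.82. The only measured kidney tubule marker, SCNN1G, and the only measured intestinal one, SI, were dim, with means of 3.04 and 2.88. The 3 atrial markers measured were all higher in IUGR on the mean, with a median difference of 0.44, each in 4 of 6 pairs. NPPA differed by 0.76 ± 1.97, SLN by 0.44 ± 0.92 and GJA5 by 0.14 ± 0.34. All 3 were highest in IUGR replicate 3, at 15.79, 8.73 and 8.71. Of the liver markers, 5 of 6 were lower, with a median of -0.35. Single control hearts weighed on the liver means. ITIH3, SERPINF2 and VTN were highest in control replicate 6, at 7.12, 6.17 and 5.08, and APOB in control replicate 2, at 8.07. AHSG was higher in IUGR in 1 of 6 pairs. The 3 red cell markers were higher on the mean, HBA by 0.41 ± 0.31 in 6 of 6 pairs. HBB2 differed by 0.12 ± 0.29 and BPGM by 0.14 ± 0.26, each higher in 4 of 6 pairs. Of 2 endothelial markers, KDR was higher by 0.43 ± 0.30 in 6 of 6 pairs. VWF, which was dim, differed by 0.12 ± 1.13 and was higher in 4 of 6 pairs. Of 2 smooth muscle markers, TAGLN was higher by 0.50 ± 0.43 and MYH11 differed by -0.55 ± 0.92. Of all the cell type markers measured, only HBA, KDR and TAGLN had an unadjusted p under 0.05 in limma. Among all probes, 3.58% had such a p, and 2.25% had the same sign in 6 of 6 pairs. None of these markers passed the adjusted threshold, and their part in the values of the solute carriers was not tested.

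Heart muscle draws on several solute carrier families. Amino acid exchangers of the cell surface work as a heavy chain joined to a light chain, sodium-driven glutamate carriers feed metabolism, and anion exchangers, the sodium-proton exchangers and the potassium-chloride cotransporters set the pH and the volume of the cell. Other members of the class are best known from the kidney tubule, the gut and the liver, where they take up or excrete glucose, peptides, phosphate, bile acids, urea and organic drugs. Many of the named genes belong to this second kind.

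The first question was whether the solute carriers differed between growth-restricted and control ventricles. No member passed the test. Of the 35 genes, 15 were higher and 20 lower in IUGR on the mean, and 0 passed an adjusted p of 0.05 in limma, where 0% of all 43603 probes did. An unmoderated paired test called 0 as well. At an unadjusted p under 0.05 in limma there were 2, SLC9A3 higher and SLC28A2 lower, which is 5.71% of the members against 3.58% of all probes (2.03% higher and 1.55% lower) and 4.06% of the named genes. The share of members that were higher, 42.9%, compares with 52% of all probes and 51.6% of the named genes. The median difference was -0.04 for the solute carriers, 0.01 for all probes and 0.01 for the named genes, and the median size of a difference without its sign was 0.14, 0.14 and 0.14. By the probe used for each gene, in no member did all 6 pairs have the same sign, which was seen in 2.25% of all probes and 2.54% of the named genes. Further probes of SLC36A1, SLC3A1 and SLC22A2 did have the same sign in 6 of 6 pairs. At least 5 of 6 pairs had the same sign in 14.3% of members and in 20.1% of all probes. Also, in no member were the 6 IUGR and the 6 control values apart, against 0.0505% of all probes.

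The pairs did not all lean the same way. Between 15 and 17 of the 35 genes were higher in the IUGR member in pairs 1, 2, 3, 4 and 6, and 22 in pair 5, where the median member differed by 0.13. In the other 5 pairs it lay between -0.12 and -0.01. The median over all probes lay between -0.01 and 0.04 in each of the 6 pairs. The intervals show what sizes the data bound: the 95% interval of the difference lay within 1 log2 of 0 in both directions for 30 of 35 genes, and within 0.5 log2 for 9, of which 8 were brighter than the median probe. Precision followed brightness, with a median standard error of 0.172 for the 19 bright and 0.244 for the 16 dim members. These are bulk samples, in which fewer cells of a type and less RNA per cell cannot be told apart.

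**Figure D1:**
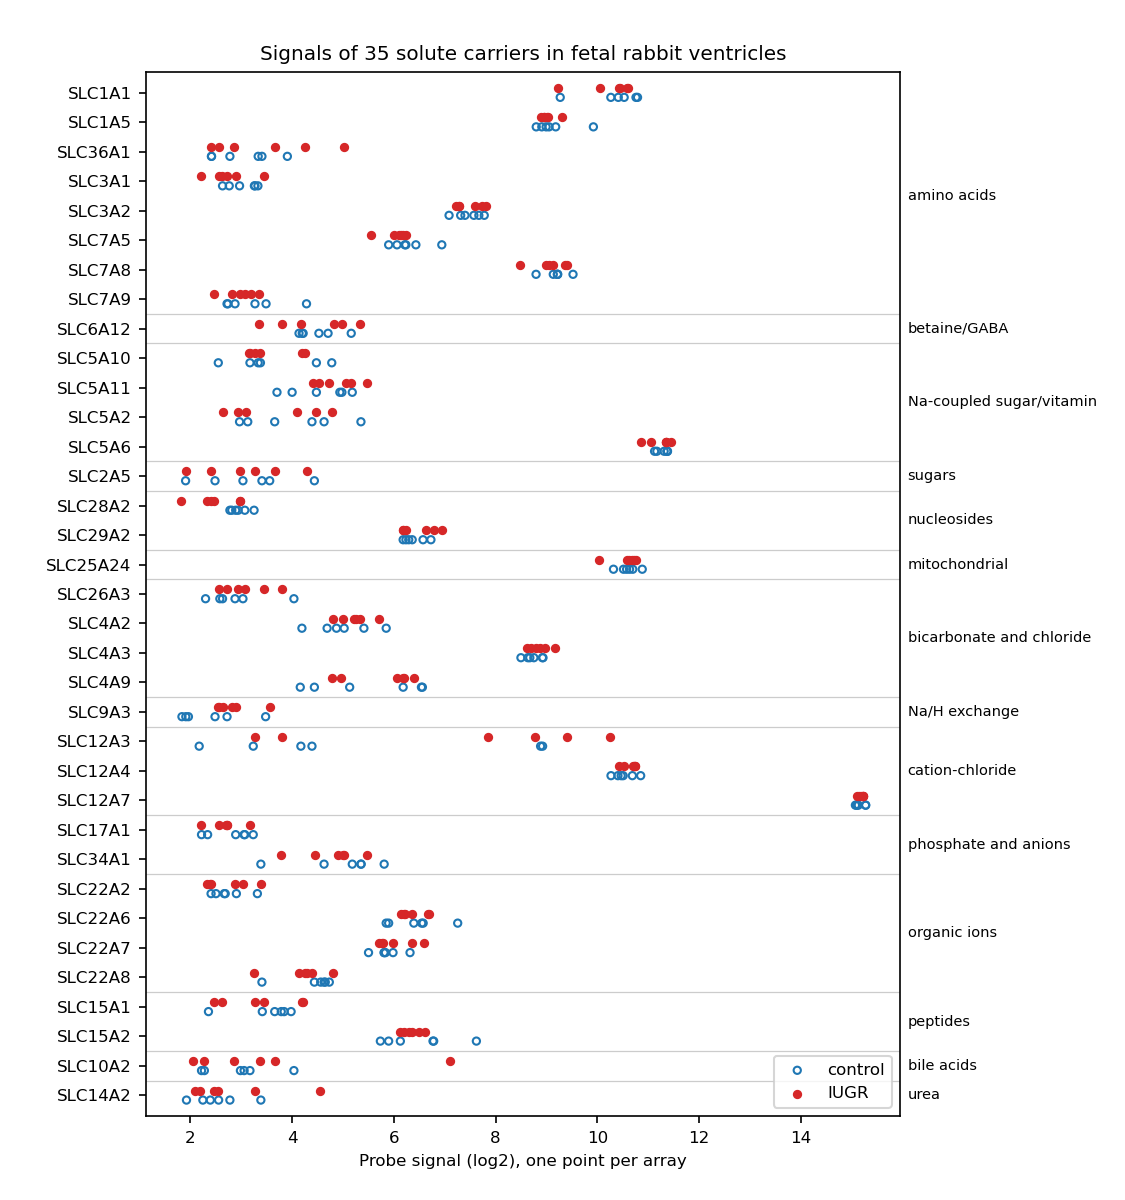
Signals of the 35 solute carriers in the 12 ventricles, grouped by what they carry. The horizontal axis is the log2 probe signal, with 1 point per array, filled red for IUGR and open blue for control. In every gene the red and blue points overlap, SLC12A7 sits above 15, and SLC12A3 splits into values up to 4.39 and values from 7.85.

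**Figure D2:**
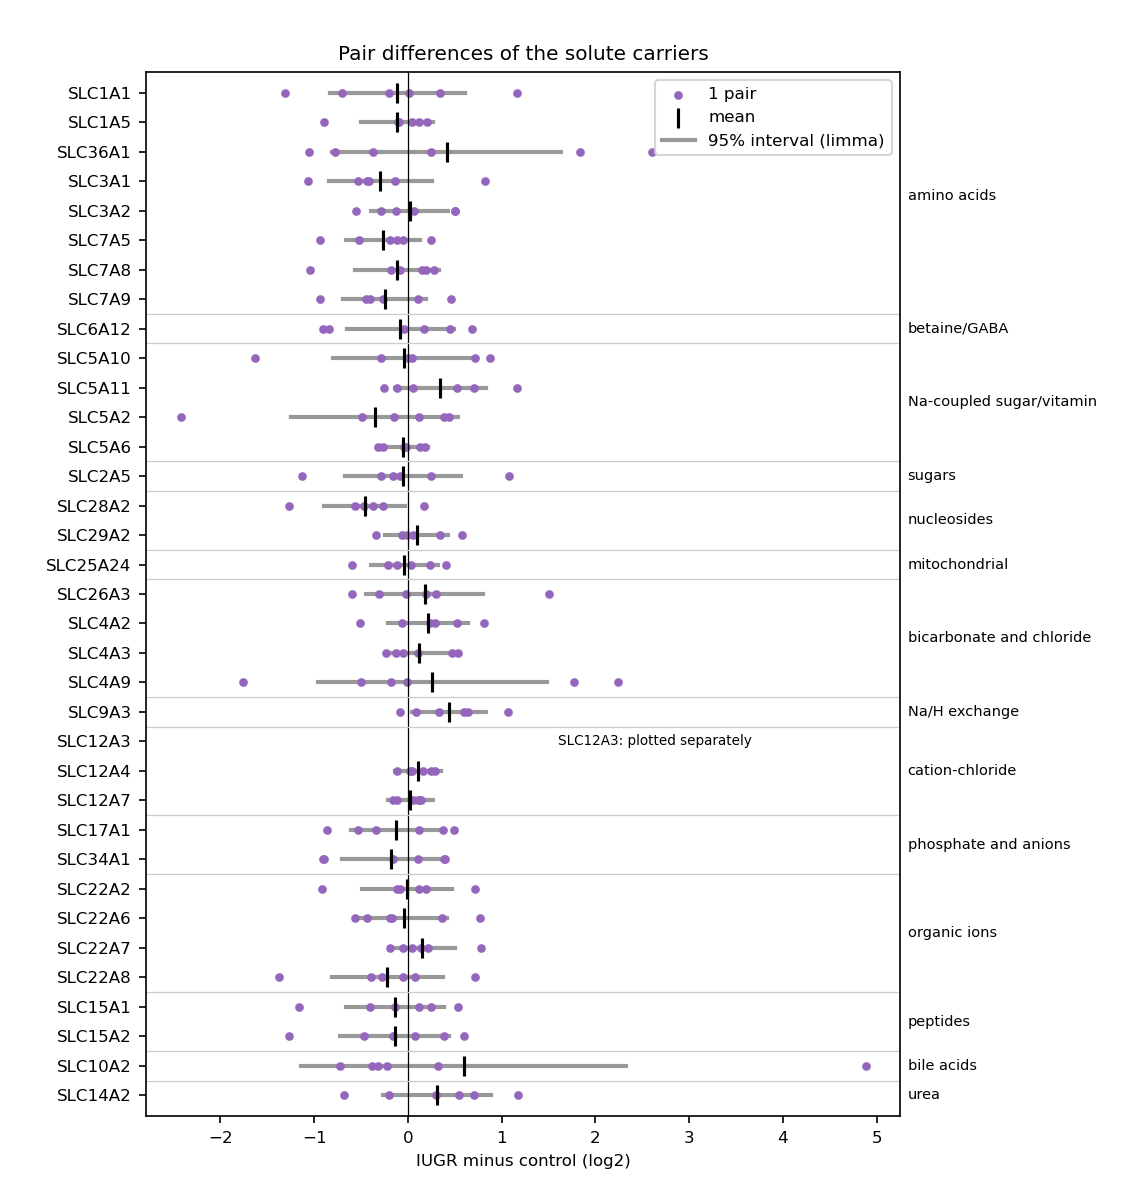
IUGR minus control differences in log2 units for 34 solute carriers, without SLC12A3, whose pair differences ran from -5.64 to 8.07. Purple points are the 6 pairs, the black bar is their mean and the grey line the 95% interval from limma. The interval leaves out 0 only for SLC28A2 and SLC9A3, and among these 34 the lone point beyond 4 belongs to SLC10A2 in pair 5.

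Amino acid carriers were the largest group, with 8 genes, of which 6 were lower and 2 higher in IUGR, with a median of -0.12 and 0 past the adjusted or the unadjusted threshold. The surface exchangers come first. SLC3A2 is the heavy chain that brings its light chains to the cell surface, and its signal ran from 7.22 to 7.82 (median 7.44) in IUGR and from 7.09 to 7.78 (median 7.49) in control. Both ranges covered nearly the same values, and the difference was 0.02 ± 0.43, with 3 pairs each way. The light chain SLC7A5, which carries large neutral amino acids such as leucine, stood at 5.55 to 6.24 (median 6.12) in IUGR and at 5.90 to 6.94 (median 6.23) in control. It was lower in 5 of 6 pairs, with -0.94 in pair 1 and -0.52 in pair 3 and a mean of -0.26 ± 0.41 (exact two-sided p = 0.219, limma adjusted p = 0.982). Without pair 1 it was -0.13. SLC7A8, another light chain for neutral amino acids, ran from 8.48 to 9.41 (median 9.09) in IUGR and from 8.80 to 9.52 (median 9.22) in control. Its lowest value, 8.48, and its highest, 9.52, were the 2 members of pair 2, and the mean of -0.11 ± 0.49 turned to 0.07 without that pair. Over the 12 arrays, SLC3A2 correlated at -0.27 with SLC7A5 and at -0.66 with SLC7A8, so the heavy chain did not follow either light chain.

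SLC1A1, a sodium-driven carrier of glutamate and aspartate, was bright and moved between hearts more than between groups. It ran from 9.22 to 10.61 (median 10.43) in IUGR and from 9.27 to 10.79 (median 10.47) in control. One heart of each group stood low, IUGR replicate 2 at 9.22 and control replicate 3 at 9.27, so that the pair differences went from -1.31 in pair 2 to 1.17 in pair 3 and averaged -0.11 ± 0.85. Its further probe showed both low hearts as well and correlated with the first at 0.92. SLC1A1 and SLC7A8 were the 2 members most alike over the 12 arrays, with r = 0.80, the highest of all pairs of members. SLC1A5, which exchanges glutamine and other small neutral amino acids, stood at 8.88 to 9.30 (median 8.98) in IUGR and 8.80 to 9.92 (median 9.02) in control. Control replicate 1, at 9.92, was the highest heart, and the mean of -0.12 ± 0.40 became 0.03 without pair 1.

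The pair of SLC3A1, a heavy chain, and SLC7A9, its light chain, takes up cystine and basic amino acids in the kidney tubule, and both probes were dim here, at percentiles 25.4 and 32.7. SLC3A1 ran from 2.21 to 3.46 (median 2.68) in IUGR and from 2.64 to 3.33 (median 3.12) in control, lower in 5 of 6 pairs, with a mean of -0.29 ± 0.62 (exact p = 0.281, limma adjusted p = 0.982). All 4 of its probes were lower in IUGR, with differences of -0.55 to -0.05, and 1 of them was lower in 6 of 6 pairs, although none of the other 3 correlated with the probe used at more than 0.26. SLC7A9 ran from 2.47 to 3.35 (median 3.03) in IUGR and from 2.72 to 4.29 (median 3.08) in control. It differed by -0.25 ± 0.48, lower in 4 of 6 pairs, with 1 of its 4 probes of the other sign. That dim probe differed by more, 0.47 ± 0.49, and was higher in 4 of 6 pairs. SLC36A1, a proton-driven carrier of small amino acids found on lysosomes and in the gut, was the amino acid carrier with the widest spread between pairs. Its IUGR values ran from 2.40 to 5.03 (median 3.26) and its control values from 2.42 to 3.91 (median 3.06), with 2.61 in pair 1, 1.84 in pair 6 and -1.06 in pair 2. The mean of 0.41 ± 1.49 turned to -0.02 without pair 1, while 5 of 6 probes were higher in IUGR, all of them dim. Further probes that differed by 0.62 ± 0.67 and 0.76 ± 0.81 were higher in 6 of 6 pairs. They correlated with the probe used at 0.19 and 0.66. The probe that was lower in IUGR differed by -0.29 ± 0.64. SLC6A12, which carries betaine and GABA and serves in the response to salt stress, differed by -0.08 ± 0.66, with 3 pairs each way.

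Carriers of ions bear on the pH and the volume of the muscle cell. All 4 bicarbonate and chloride carriers were higher in IUGR on the mean, by 0.12 to 0.26, and none passed either threshold. SLC4A3 is the anion exchanger AE3 of heart muscle and brain, which trades bicarbonate for chloride and so acidifies the cell. It ran from 8.62 to 9.17 (median 8.83) in IUGR and from 8.50 to 8.93 (median 8.71) in control, a difference of 0.12 ± 0.32 with 3 pairs each way and a 95% interval of -0.22 to 0.45. SLC4A2, the widely expressed anion exchanger AE2, stood at 4.81 to 5.70 (median 5.24) in IUGR and at 4.20 to 5.85 (median 4.95) in control and was higher in 4 of 6 pairs, by 0.21 ± 0.46 on the mean. SLC4A9, a related carrier known from the kidney, was among the members that varied most. Control replicates 1, 3 and 6 stood at 4.44, 4.16 and 5.13, and IUGR replicates 5 and 6 at 4.78 and 4.96. The other hearts ran from 6.06 to 6.56. The mean of 0.26 ± 1.49 turned to -0.13 without pair 3. SLC26A3, a chloride-bicarbonate exchanger of the gut, was dim and differed by 0.18 ± 0.73, with 1 of its 3 probes of that sign.

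SLC9A3, the sodium-proton exchanger NHE3 of kidney and gut, had the smallest p of the 35. Its IUGR values ran from 2.55 to 3.57 (median 2.73) and its control values from 1.84 to 3.48 (median 2.23), near the bottom of the scale. The IUGR heart stood above its partner in 5 of 6 pairs, and pair 4 gave -0.08. The difference was 0.44 ± 0.42, with limma p = 0.0342, adjusted p = 0.982 and an exact two-sided p of 0.0625 from 64 sign patterns, a test that cannot go below 0.03125. Replicate 5 was the highest of both groups, at 3.57 and 3.48, and the mean ran from 0.31 without pair 6 to 0.54 without pair 4. SLC9A3 has 1 probe, at percentile 12.5, the lowest of the members.

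The cation-chloride cotransporters gave the flattest and the most divided signals of the class. SLC12A7, the potassium-chloride cotransporter KCC4, ran from 15.11 to 15.23 (median 15.20) in IUGR and from 15.07 to 15.27 (median 15.12) in control. Its 5 probes had means of 14.78 to 15.17, near the table's maximum of 15.83, and all 5 differed by 0.01 to 0.08. Whether a place near the top of the scale hides a difference was not tested. SLC12A4, the cotransporter KCC1 that lets potassium and chloride out of swollen cells, ran from 10.43 to 10.73 (median 10.71) in IUGR and from 10.27 to 10.85 (median 10.49) in control. It was higher in 5 of 6 pairs by a small amount, 0.11 ± 0.15 (exact p = 0.156, limma adjusted p = 0.982), with a 95% interval of -0.14 to 0.35.

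SLC12A3, the thiazide-sensitive sodium-chloride cotransporter of the distal kidney tubule, stood apart from every other member. Its IUGR values in replicates 1 to 6 were 7.85, 10.25, 3.28, 9.40, 8.77 and 3.81. The control values in replicates 1 to 6 were 3.24, 2.18, 8.92, 4.17, 4.39 and 8.89. In each of the 6 pairs 1 heart was high and its partner low, the high one being IUGR in 4 pairs and control in 2, with nothing between 4.39 and 7.85. The difference over the pairs was 1.93 ± 5.80 (limma p = 0.364, exact p = 0.5), with extremes of 0.70 without pair 2 and 3.44 without pair 3. No other of the 43603 probes had a gap as wide as 3.46 log2 between the sixth and the seventh value, a measure chosen after this gene's values had been seen. A range as wide as its 8.07 log2 was found in 124 probes, 0.284% of the table, and in no other member. Among the other 43602 probes, correlations with it over the 12 arrays reached 0.89 at the highest and -0.87 at the lowest. SLC12A3 has 1 named probe, so no second probe could be set beside it, and why it divides the hearts was not tested.

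**Figure D3:**
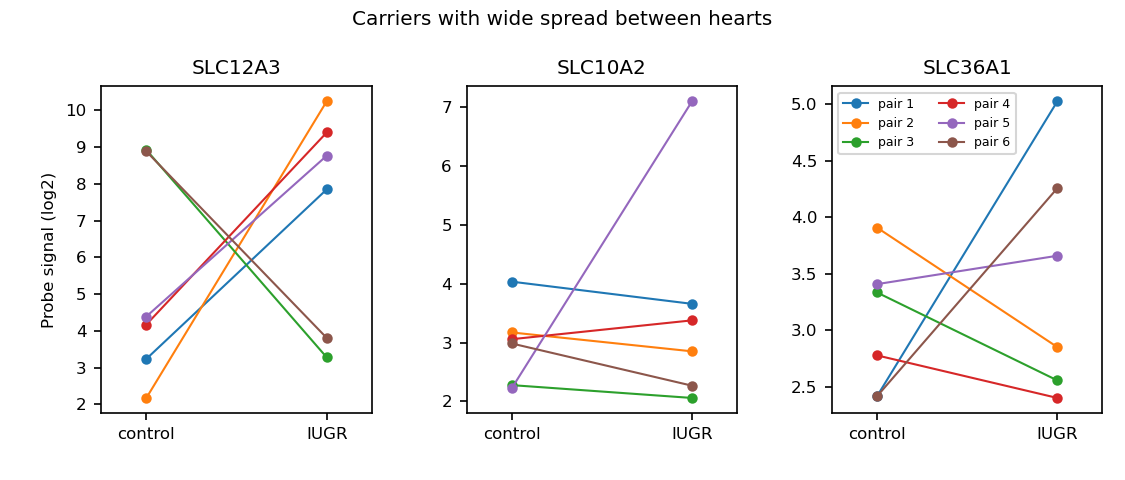
Paired log2 probe signals of SLC12A3, SLC10A2 and SLC36A1, with 1 line per pair from the control to the IUGR heart. SLC12A3 crosses from low to high in 4 pairs and from high to low in 2, SLC10A2 is high in 1 heart only, IUGR replicate 5 at 7.11, and SLC36A1 goes up in 3 pairs and down in 3. The vertical scales differ between panels.

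Sugar and vitamin carriers were 5 genes, 1 higher and 4 lower in IUGR. SLC5A6 takes up biotin and pantothenate, the vitamin from which coenzyme A is made, and it was steady: 10.86 to 11.44 (median 11.35) in IUGR, 11.12 to 11.38 (median 11.34) in control and a difference of -0.05 ± 0.20, with a 95% interval of -0.32 to 0.21. Its dimmer probe differed by 0.18. SLC5A11, a carrier of myo-inositol, stood at 4.41 to 5.47 (median 4.89) in IUGR and at 3.70 to 5.18 (median 4.71) in control. It was higher in 4 of 6 pairs, by 1.16 in pair 5, with a mean of 0.35 ± 0.55 (exact p = 0.219, limma adjusted p = 0.982). SLC5A2, the kidney glucose carrier SGLT2, differed by -0.35 ± 1.07, most of it from -2.42 in pair 2, and the sign turned without that pair (0.06). SLC5A10, a sodium-driven sugar carrier of the kidney, differed by -0.05 ± 0.90, and SLC2A5, which lets fructose through, by -0.05 ± 0.72, and both were dim.

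Nucleoside carriers were SLC28A2 and SLC29A2, and 1 of the 2 had an unadjusted p under 0.05. SLC28A2, which draws purine nucleosides such as adenosine into the cell with sodium, ran from 1.81 to 2.99 (median 2.44) in IUGR and from 2.78 to 3.25 (median 2.92) in control. In 4 of 6 IUGR hearts the signal was below every control value, and replicates 3 and 6, at 2.99 and 2.99, overlapped the controls. The difference was -0.46 ± 0.47, lower in 5 of 6 pairs, with limma p = 0.0397, adjusted p = 0.982 and an exact p of 0.0625. Leaving out pairs gave -0.59 without pair 6 at the lowest and -0.30 without pair 1 at the highest, and the 1 probe was dim, at percentile 18. SLC29A2, which lets nucleosides pass in both directions, stood at 6.17 to 6.94 (median 6.44) in IUGR and at 6.18 to 6.73 (median 6.33) in control, and differed by 0.09 ± 0.32, with 3 pairs each way. SLC25A24, a mitochondrial carrier that exchanges ATP-magnesium for phosphate and answers to calcium, ran from 10.03 to 10.75 (median 10.64) in IUGR and from 10.32 to 10.88 (median 10.60) in control. IUGR replicate 2, at 10.03, was the lowest heart, as it was for SLC1A1 and SLC7A8, and the difference of -0.04 ± 0.36 turned to 0.07 without pair 2.

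**Figure D4:**
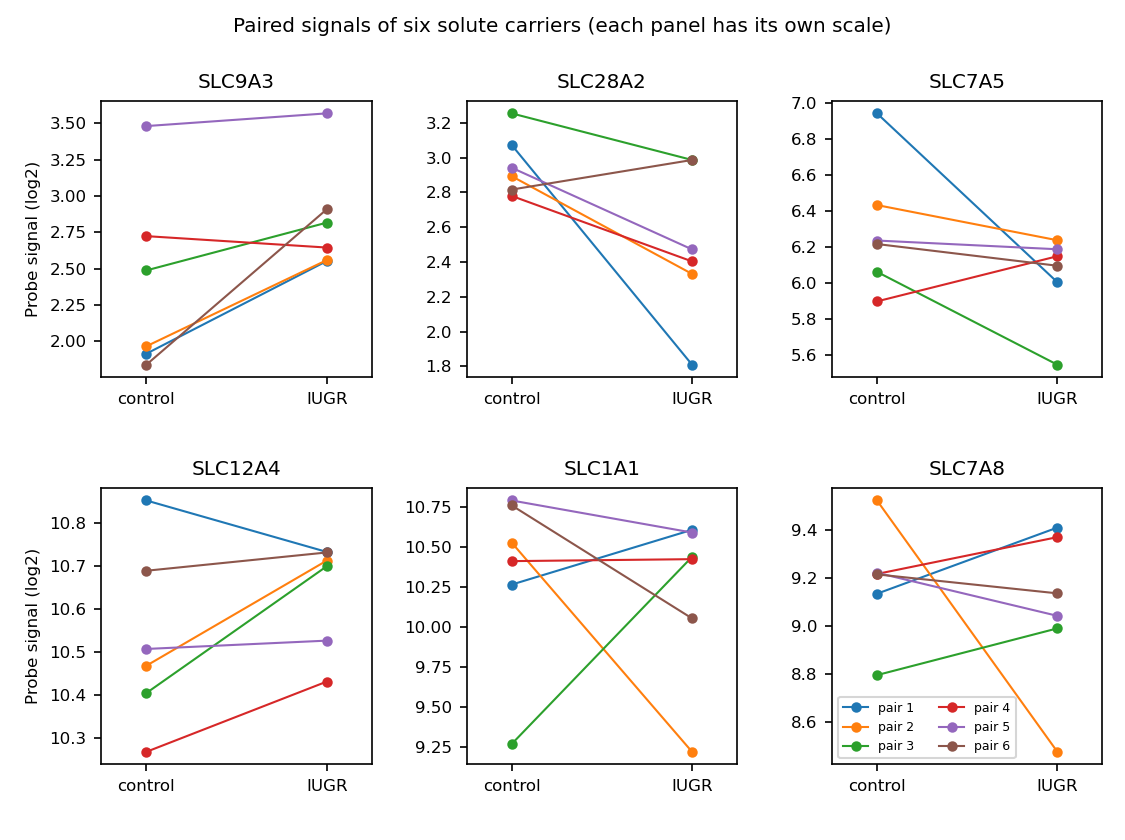
Paired log2 probe signals of SLC9A3, SLC28A2, SLC7A5, SLC12A4, SLC1A1 and SLC7A8, with 1 line per pair from the control to the IUGR heart. SLC9A3 and SLC12A4 go up in 5 of 6 pairs, SLC28A2 and SLC7A5 go down in 5 of 6, and SLC1A1 and SLC7A8 both slope down in pair 2. Each panel has its own scale.

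The peptide, phosphate, organic ion, bile acid and urea carriers were 10 genes, 3 higher and 7 lower in IUGR, and none of these 10 passed either threshold. Of the peptide carriers, SLC15A2 had 3 bright probes and ran from 6.12 to 6.62 (median 6.33) in IUGR and from 5.74 to 7.62 (median 6.45) in control. The controls spread more widely than the IUGR hearts, with control replicate 1 the highest at 7.62, and the difference of -0.14 ± 0.67 turned to 0.08 without pair 1. SLC15A1, the peptide carrier of the gut, was dim and differed by -0.13 ± 0.60. The phosphate carrier SLC34A1 of the kidney differed by -0.18 ± 0.60 and SLC17A1, an anion and phosphate carrier, by -0.12 ± 0.54.

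Organic ion carriers take up drugs and waste in kidney and liver, and 3 of the 4 were lower on the mean. SLC22A6, which trades organic anions for dicarboxylates, ran from 6.14 to 6.70 (median 6.29) in IUGR and from 5.85 to 7.26 (median 6.47) in control and differed by -0.04 ± 0.51. SLC22A7, another anion carrier, differed by 0.16 ± 0.34, higher in 4 of 6 pairs. SLC22A8 differed by -0.22 ± 0.69 with 2 of its 5 probes of that sign, and SLC22A2, which carries organic cations, by -0.01 ± 0.53. For SLC22A2 the probe used and 1 of the others disagreed: the latter was higher in 6 of 6 pairs by 0.41 at a mean level of 2.45, and the other 4 had differences of -0.22 to -0.01.

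SLC10A2, the bile acid carrier of the ileum, had 1 heart far from the rest. IUGR replicate 5 stood at 7.11, the other 5 IUGR hearts from 2.06 to 3.66 and the controls from 2.22 to 4.04 (median 3.02). That pair differed by 4.88, and the mean of 0.59 ± 2.13 turned to -0.26 without it. None of the other 3 probes of SLC10A2 came near 7.11 in that heart, where they stood at 2.81, 2.13 and 2.99. The value of 2.99 was the highest IUGR value of its probe, which reached 3.56 in control replicate 5. SLC14A2, a urea transporter of the kidney medulla, ran from 2.10 to 4.56 (median 2.51) in IUGR and from 1.93 to 3.39 (median 2.48) in control. It differed by 0.31 ± 0.66 with 3 of its 7 probes of that sign, and pair 1, at 1.17, gave the largest share.

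How far probes of a gene agreed depended on how bright they were. For 15 further probes that were bright, in genes whose first probe was bright too, the correlation with the first probe over the 12 arrays had a median of 0.63. For 36 further probes where both were dim the median was -0.02, so that, on the median, 2 dim probes of a gene did not move together. These correlations are descriptions over arrays that share their labelling and scan. SLC7A8 stood at the top with 4 probes between 8.54 and 9.10 that followed the first at up to 0.99. SLC25A24 was an exception among the bright, with 2 probes near 6.52 and 6.84 that correlated with the first at -0.22 and -0.20 while the third reached 0.55. Of the 17 genes with several probes, 6 had 1 sign of the difference in all of them, namely SLC12A7, SLC15A2, SLC1A1, SLC1A5, SLC25A24 and SLC3A1.

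**Figure D5:**
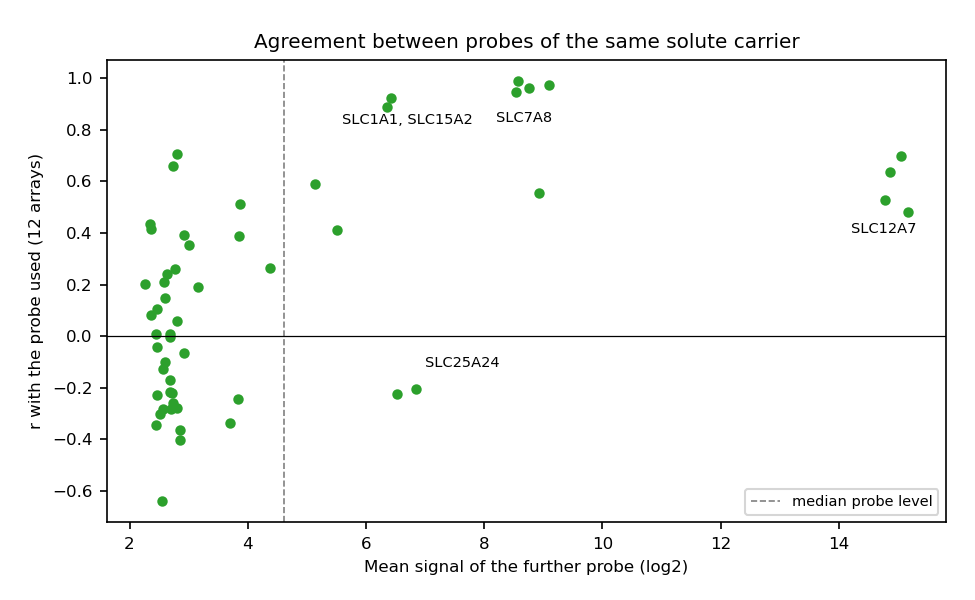
Correlation of each further probe of a solute carrier with the probe used for that gene over the 12 arrays, against the mean log2 signal of the further probe. The dashed line is the median probe level of 4.61. To its left the points scatter around 0, and to its right most lie above 0.4, apart from 2 probes of SLC25A24.

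Proteins that drive or hold the carriers were counted beside them. Ion pumps, which build the gradients that the sodium-driven carriers use, had 6 of 20 listed genes measured, 3 higher and 3 lower, with 0 past either threshold. ATP1B1, the main beta subunit of the sodium pump, differed by -0.10 ± 0.59. Partners and regulators of the carriers had 8 of 21 measured, 5 higher and 3 lower, again with 0 past either threshold. BSG, the membrane partner of the lactate carriers, was higher in 5 of 6 pairs by 0.24 ± 0.28 (limma adjusted p = 0.982), and NHERF1, a scaffold that binds SLC9A3, differed by -0.33 ± 0.72. Of the ABC efflux pumps, 2 of 13 were measured and both were lower on the mean, with a median of -0.05.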

How the data were processed

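The deposited values are log2 probe signals that the authors processed with RMA, per the submitters' processing notes, from single-colour Agilent arrays. Base 2 was inferred from the maximum of 15.83. At each rank the sorted arrays lay within 0.13 log2 of each other, so a shift common to most probes cannot be seen. Scanner software, background method and probe filter were not stated in the sources at hand. Values entered the fits as deposited.

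Of 43603 probes, 1673 have a gene name. Symbols were updated through RefSeq (assembly mOryCun1.1), for 34 members by accession and for 1 by synonym. No genome of the array's build was used, so no coordinates or sequences are given.

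All probes entered one limma 3.58.1 fit in R 4.3.3 (lmFit, eBayes, two-sided). The pair was a fixed term, and Benjamini-Hochberg adjustment ran over the 43603 probes. Exact p-values come from the sign changes of the 6 pair differences. The pairs come from the labels. Deviations from the group means correlated at 0.129 to 0.254 within pairs. Among the 6 arrays of the other group, all 12 arrays correlated best with their own partner. Arrays of the same group were not compared in this way. The number of arrays limits the precision. The fit was tested on simulated data. Alternatives dropped the pair term, a pair or dim probes, centred or quantile-normalized arrays, weighted arrays, changed the prior, left out moderation or averaged the probes of a gene.

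Members and lists were chosen with earlier results of these data known. All members are named. Both groups' values are given for the 6 brightest, the 6 with the smallest p and those with a known part in heart muscle, and the widest pair spread and probes that disagree in sign are described. Lists of SLCO carriers and of water channels had 0 named genes measured and were not analysed here.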

Additional observations from a re-analysis of the deposited data

Results flagged for a closer look

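Each member was screened in each group for a heart far from the other 5 by Dixon's test, and 9 of 70 groups had one, where chance gives about 3.5. High hearts were IUGR replicate 5 for SLC10A2, at 7.11 against 2.06 to 3.66 in the others, and for SLC9A3, at 3.57 against 2.55 to 2.91. For SLC1A5 there was a high heart in each group, IUGR replicate 3 at 9.305 against 8.88 to 9.03 and control replicate 1 at 9.92 against 8.80 to 9.18. Low hearts in IUGR were replicate 2 for SLC25A24, at 10.03 against 10.58 to 10.75, and replicate 3 for SLC7A5, at 5.55 against 6.01 to 6.24. In the controls, low hearts were replicate 3 for SLC1A1, at 9.27 against 10.27 to 10.79, replicate 5 for SLC22A8, at 3.41 against 4.44 to 4.73, and replicate 6 for SLC15A1, at 2.36 against 3.42 to 3.98. No heart was far from the others in more than 2 genes. The low SLC1A1 of control replicate 3 was seen in both probes of the gene, and an SLC10A2 signal near 7.11 in IUGR replicate 5 in 1 of 4. Without the pair that holds the far heart, the difference changed sign for SLC10A2 (-0.26), for SLC25A24 (0.073) and, leaving out pair 1, for SLC1A5 (0.034).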

How the results depend on the processing

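Over every alternative run, 0 solute carriers passed the adjusted threshold in limma or the ordinary paired test, and so did 0 probes wherever single probes were fitted (all but the averaging of a gene's probes), with 0.897 the lowest adjusted p of a member. The count of 2 members at an unadjusted p under 0.05 became 1 without the replicate block (SLC9A3 was lost), 1 with the ordinary paired test (SLC28A2 was lost) and 0 with a robust prior that follows intensity. It became 0 without the probes below the median level, where both lie, 4 after averaging a gene's probes, where SLC3A1 (-0.30) and SLC36A1 (0.32) joined, and 0 to 1 with 1 pair left out, the 1 being SLC9A3 without pair 4 or 5, SLC28A2 without pair 6 and SLC3A1 without pair 2. No share over all genes is given here for averaged probes, so the count of 4 has no background beside it. Beyond the filter, the cause was not tested. Of all probes, 1562 (3.58%) had an unadjusted p under 0.05, against 857 (1.97%) without the replicate block. Among probes above the median level 624 did, which is 2.86% of that smaller set. The share was 2.70% with the robust prior that follows intensity and 3.19% with the ordinary paired test. With 1 pair left out it ran from 3.31% to 4.54%. The pairing changed no adjusted call. The median difference of the members ran from -0.064 without pair 3 to 0.041 without pair 2, and each shift was within the SD of 0.088 between pair medians.

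Of 474 values of single genes under an alternative, 34 changed sign, in 21 of 35 genes. Averaging a gene's probes gave SLC17A1 0.076, SLC22A2 0.018, SLC26A3 -0.099 and SLC5A6 0.060. Array weights gave SLC22A2 3.14e-05 and SLC3A2 -0.030. With 1 pair left out, the genes that changed sign ran over SLC10A2 -0.26 to 0.86, SLC15A1 -0.27 to 0.071, SLC15A2 -0.29 to 0.084, SLC17A1 -0.25 to 0.025, SLC1A1 -0.37 to 0.12, SLC1A5 -0.19 to 0.034, SLC22A2 -0.16 to 0.17, SLC22A6 -0.20 to 0.066, SLC22A8 -0.40 to 0.014, SLC25A24 -0.13 to 0.073, SLC26A3 -0.086 to 0.33, SLC29A2 -0.0034 to 0.18, SLC2A5 -0.28 to 0.16, SLC36A1 -0.024 to 0.71, SLC3A2 -0.080 to 0.13, SLC4A9 -0.13 to 0.67, SLC5A10 -0.23 to 0.27, SLC5A2 -0.51 to 0.063, SLC6A12 -0.23 to 0.085 and SLC7A8 -0.19 to 0.073. The 16 members below the median probe are limited by dim signal, and SLC12A7 may be limited by the top of the scale, which was not tested.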
